A study of Homo sapiens with 3 samples.

Results

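Secretoglobins are small secreted proteins of glandular epithelia. SCGB2A1 (lipophilin C, also called mammaglobin B), SCGB1D2 (lipophilin B) and SCGB2A2 (mammaglobin A) are 3 members of the family, and they were taken from 33423 genes that had a row in at least 1 of 3 Drop-seq libraries. The genes were selected on earlier results from the same counts, so their levels and ratios are given as a description and no test was made on them. A gene without a row in a library was counted as 0. By this rule all 3 genes had a row in VCaP parental, and SCGB1D2 and SCGB2A1 had one in the others.

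VCaP parental held VCaP cells kept for 48 h in the vehicle, 0.1% DMSO. VCaP–ENZ48 was made from VCaP cells exposed for 48 h to enzalutamide (ENZ) at 10 µM, and LNCaP–ENZ168 from LNCaP cells exposed for 168 h to ENZ at the same dose. Both lines are prostate cancer cell lines that the labels call sensitive to ENZ, an antiandrogen drug. Each group was 1 library, and a vehicle library of LNCaP was not analysed here. Cell line, time in ENZ and preparation therefore cannot be told apart between LNCaP–ENZ168 and the VCaP libraries, nor can ENZ and the preparation of a library between the VCaP libraries.

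After filtering, the libraries held 997, 947 and 944 cells, in the order VCaP parental, VCaP–ENZ48 and LNCaP–ENZ168, with medians of 17817, 11224 and 5389 unique molecular identifiers (UMIs, 1 for each captured mRNA molecule) per cell. No barcode was shared between libraries. ERG, which the gene fusion of VCaP brings under androgen control, was at 105, 57.1 and 0 CPM (UMIs of a gene per 1000000 UMIs), and the luminal prostate markers KRT8, KRT18, FOXA1 and HOXB13 were detected in each library. The summed markers of basal epithelium, fibroblasts, immune cells and endothelium were each at most 2.06 CPM, and KRT5, TP63, COL1A2 and CD3E were at 0 in every library. The summed neuroendocrine markers (CHGA, SYP and INSM1) were at 32.2, 49.996 and 1.58 CPM, and their part in the secretoglobin values was not tested.

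Secretoglobins form dimers and tetramers, and lipophilins of the SCGB1D branch are known to pair with mammaglobins of the SCGB2A branch in tears and other glandular secretions. SCGB2A2 is known as a marker of breast epithelium, and SCGB2A1 and SCGB1D2 are found in many glandular tissues. Several secretoglobins are regulated by steroid hormones, which is the setting in which an antiandrogen was given here.

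The 3 genes lie next to each other on the forward strand of chromosome 11, each with 3 exons, in the order SCGB2A1 (GRCh38 62208673 to 62213943), SCGB1D2 (62242239 to 62244812) and SCGB2A2 (62270158 to 62273160), by Gencode 44. An unnamed long noncoding RNA gene on the reverse strand overlaps SCGB2A1 and SCGB1D2, with 0 exon bases in common with either. Reads from the exons of the genes and of this RNA can thus be told apart by position. Strand use in the counting is not given in the sources used here. Reads of this RNA from outside its exons therefore cannot be told apart from reads of the genes. The 250 bases before each start are printed below from RefSeq (GRCh38.p14, forward strand), because they show how far neighbours whose levels differ share their promoters. Capitals mark the longest run of bases that SCGB2A1 shares with SCGB2A2, and the longest that SCGB1D2 shares with SCGB1D1, its closest relative in the cluster by this promoter measure.
SCGB2A1, chr11:62208423-62208672: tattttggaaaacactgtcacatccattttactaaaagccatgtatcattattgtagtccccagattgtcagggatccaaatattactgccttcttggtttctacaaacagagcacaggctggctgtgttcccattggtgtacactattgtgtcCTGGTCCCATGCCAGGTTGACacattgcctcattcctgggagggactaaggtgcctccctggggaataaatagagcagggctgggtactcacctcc
SCGB2A2, chr11:62269908-62270157: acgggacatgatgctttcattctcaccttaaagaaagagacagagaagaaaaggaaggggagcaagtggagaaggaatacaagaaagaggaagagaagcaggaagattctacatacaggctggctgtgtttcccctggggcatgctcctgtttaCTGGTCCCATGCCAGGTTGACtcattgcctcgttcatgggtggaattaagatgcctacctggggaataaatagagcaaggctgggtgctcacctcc
SCGB1D2, chr11:62241989-62242238: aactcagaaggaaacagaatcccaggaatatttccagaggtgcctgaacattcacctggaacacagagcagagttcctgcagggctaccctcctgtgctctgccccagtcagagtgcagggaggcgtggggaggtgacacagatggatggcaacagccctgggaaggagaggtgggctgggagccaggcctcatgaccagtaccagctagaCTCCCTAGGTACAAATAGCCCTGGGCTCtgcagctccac
SCGB1D1, chr11:62189966-62190215: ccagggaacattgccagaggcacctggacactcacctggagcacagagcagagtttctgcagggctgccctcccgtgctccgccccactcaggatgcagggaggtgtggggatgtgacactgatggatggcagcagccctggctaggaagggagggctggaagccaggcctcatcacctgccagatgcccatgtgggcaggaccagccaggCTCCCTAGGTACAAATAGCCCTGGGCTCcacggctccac

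The SCGB2A1 and SCGB2A2 promoters matched at 165 of 240 aligned bases (68.8%), and their longest shared run was 21 bases, from 96 to 76 bases before the start of both genes. The SCGB1D2 and SCGB1D1 promoters matched at 197 of 230 aligned bases (85.7%), with a shared run of 28 bases from 39 to 12 bases before the start. The 6 letters AAATAG, searched on both strands, occurred 1 time in each of these 4 promoters and in that of SCGB1D4, 27 to 29 bases before the start, and 10.4% of 35116 promoters of the same length held them. TGTTCT, a half-site of steroid hormone receptors, was in none of the 5 windows and in 12.4% of all promoters. The forkhead core TGTTTAC was found in the SCGB2A2 window only, at 102 bases before the start, and in 2.98% of all promoters. The SCGB2A1 window held 0 CG dinucleotides and the SCGB1D2 window held 1, where the median of all promoters was 11. The mRNAs of SCGB2A1 and SCGB2A2 matched at 74.6% of aligned bases with a longest identical run of 29 bases. Those of SCGB1D2 and SCGB1D1 matched at 80.0% with a longest run of 44 bases, so short reads could be shared within either pair and the counts are uncertain to that extent.

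SCGB1D2 was detected at 31.3 CPM in VCaP parental (exact Poisson 95% interval 28.8 to 33.8, 610 UMIs) and at 146.6 CPM in VCaP–ENZ48 (140.4 to 153.0, 2097 UMIs). In LNCaP–ENZ168 it had 3 UMIs, or 0.475 CPM (0.0980 to 1.39). The gene was thus high in ENZ-treated VCaP, lower in vehicle-treated VCaP and near 0 in LNCaP, and the 3 intervals do not overlap. These and all later intervals cover counting error only, since no group had a second library.

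SCGB2A1 was detected at 24.0 CPM in VCaP parental (21.9 to 26.3, 468 UMIs) and at 36.5 CPM in VCaP–ENZ48 (33.4 to 39.8, 522 UMIs). LNCaP–ENZ168 had 1 UMI of the gene, or 0.158 CPM (0.00401 to 0.883). The order of the libraries was the same as for SCGB1D2, with a smaller step between the VCaP libraries.

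SCGB2A2 had 1 UMI in VCaP parental, or 0.0512 CPM (0.00130 to 0.286). It had no UMI in VCaP–ENZ48 or LNCaP–ENZ168, where a count of 0 allows up to 0.210 and 0.475 CPM. The gene that shares most promoter and mRNA letters with SCGB2A1 in this set was therefore not detectable at this depth in 2 of 3 libraries.

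**Figure D1:**
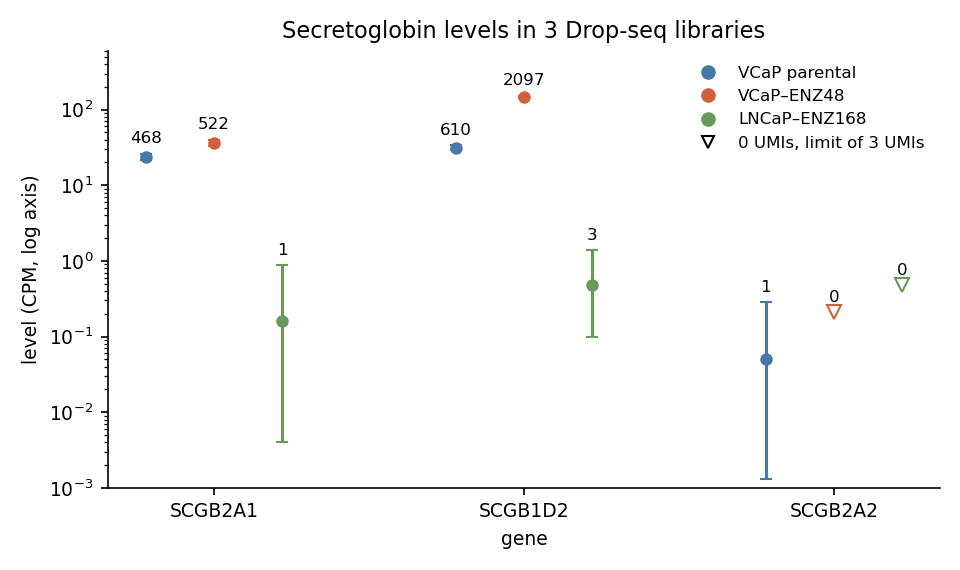
Level of each secretoglobin (y axis, CPM on a log axis) in the 3 libraries, with exact Poisson 95% intervals as bars and the number of UMIs above each point. Open triangles are libraries with 0 UMIs, placed at the level that 3 UMIs would give. SCGB1D2 and SCGB2A1 sit above 20 CPM in both VCaP libraries and below 1 CPM in LNCaP–ENZ168.

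Of 9 other secretoglobins, 5 had a row in some library and none reached 1 CPM in any. SCGB2B2 had the most UMIs among them, with 7 in VCaP parental, 9 in VCaP–ENZ48 and 2 in LNCaP–ENZ168. SCGB1D1, the closest relative of SCGB1D2 by promoter, had 1 UMI, in VCaP–ENZ48, and SCGB1D4 had none. SCGB1A1 (uteroglobin of the airway), SCGB1C1 and SCGB1C2 had no row, and SCGB1B2P, SCGB3A1 and SCGB3A2 had 5, 2 and 1 UMIs over all libraries.

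Between the VCaP libraries, SCGB1D2 was 4.69-fold higher under ENZ (exact conditional 95% interval 4.28 to 5.14). On the scale used for all genes, the log2 ratio of CPM + 1, this was 2.19, and 48 of the 16039 genes that reached 1 CPM in a VCaP library had a higher ratio. SCGB2A1 was 1.52-fold higher (1.34 to 1.73), a log2 ratio of 0.59, and 4650 genes had a higher one. The median of all genes was 0.20, so that SCGB1D2 stood 1.99 and SCGB2A1 0.39 above it. SCGB2A2 was under the level needed for a ratio. Of the members compared, 1 of 2 was at least 2-fold higher, where 12.6% of all genes were, and 0 were at least 2-fold lower, where 4.46% of all genes were. The same contrast was used in choosing the genes, and nothing is read from these counts.

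**Figure D2:**
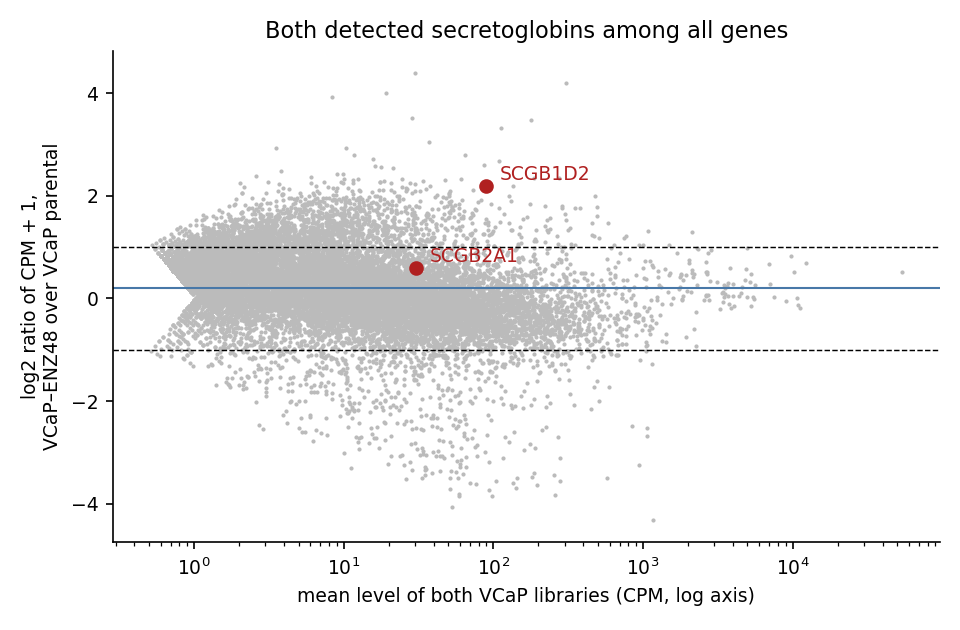
Log2 ratio of CPM + 1 between VCaP–ENZ48 and VCaP parental (y axis) against the mean level of both libraries (x axis, CPM on a log axis), with 1 grey point for each of 16039 genes. Dashed lines mark a 2-fold difference and the blue line the median of all genes, 0.20. SCGB1D2 lies at 2.19, above most genes, and SCGB2A1 at 0.59, inside the cloud.

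The scaling of the libraries moved both ratios. With TMM factors the ratios of all genes shifted by −0.29 on the log2 scale, and SCGB1D2 was at 1.91 and SCGB2A1 at 0.31. The shares of all genes at least 2-fold higher and lower were then 8.73% and 8.34%, in place of 12.6% and 4.46%. Both genes were higher in VCaP–ENZ48 under each scaling tried.

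LNCaP–ENZ168 had 309-fold less SCGB1D2 than VCaP–ENZ48 (counting interval 105 to 1498) and 65.8-fold less than VCaP parental (22.4 to 319.9). For SCGB2A1 the ratios were 230-fold (41.2 to 9119) and 151-fold (27.0 to 5993). Both members compared were at least 2-fold lower in LNCaP–ENZ168 than in VCaP–ENZ48, as were 20.2% of 17747 genes, and both were lower than in VCaP parental, as were 14.2% of 16649 genes. The wide intervals come from the 3 and 1 UMIs in LNCaP–ENZ168.

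The share of cells with a UMI was compared after thinning each cell to 2000 UMIs, since deeper cells show more genes. SCGB1D2 was found in 61 of 997 thinned cells of VCaP parental (6.12%, exact Clopper-Pearson 95% interval 4.71 to 7.79%) and in 230 of 917 of VCaP–ENZ48 (25.1%, 22.3 to 28.0%). Without thinning the shares were 41.3% and 66.4%. In LNCaP–ENZ168, 0 of 943 thinned cells had a UMI, which allows a share of up to 0.318%, and 0.318% of unthinned cells had one. The VCaP libraries held no second cell type that should lack the gene, so the share that free RNA gives within them was not measured.

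SCGB2A1 was found in 40 of 997 thinned cells of VCaP parental (4.01%, 2.88 to 5.42%) and in 77 of 917 of VCaP–ENZ48 (8.40%, 6.68 to 10.4%). A second random thinning gave 5.998% in VCaP–ENZ48, so the size of this step depended on the draw of UMIs. Without thinning the shares were 33.5% and 34.1% in libraries of unequal depth. LNCaP–ENZ168 had SCGB2A1 in 1 of 943 thinned cells (0.106%).

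More SCGB1D2 UMIs per positive cell accompanied the larger share. A cell with any SCGB1D2 held 1.48 of its UMIs on average in VCaP parental and 3.33 in VCaP–ENZ48, and the highest count in a cell was 7 and 23. For SCGB2A1 the averages were 1.40 and 1.62, and the highest counts 5 and 8. If the UMIs of SCGB1D2 had fallen on cells in proportion to depth, 44.1% of VCaP parental and 74.1% of VCaP–ENZ48 cells would have held one, against the 41.3% and 66.4% observed. The variance of SCGB1D2 counts was 1.24 times the value for such an even spread in VCaP parental and 2.43 times in VCaP–ENZ48. For SCGB2A1 it was 1.26 and 1.40 times. At equal relative spread between cells this ratio rises with the mean count, so it is not compared between libraries or genes.

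Much of the SCGB1D2 signal of VCaP–ENZ48 was in cells with several UMIs. There, 149 cells (15.7%) held 5 or more UMIs of SCGB1D2 and together 54.5% of all its UMIs, and VCaP parental had 6 such cells. They were also deep cells, with a median of 28404 UMIs, and 56 of the 149 were above 3 times the median depth, a range in which doublets can lie. The counts ran from 0 to 23 with no gap below 14 UMIs, and 30 cells had 10 or more. The 10% of cells richest in SCGB1D2 held 41.8% of its UMIs in VCaP parental and 41.2% in VCaP–ENZ48. A spread in exact proportion to depth, without counting noise, would give the top 10% of cells 19.4% and 30.3%. Counting noise in sparse counts alone raises the observed shares above these values, so no unevenness is read from the comparison.

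**Figure D3:**
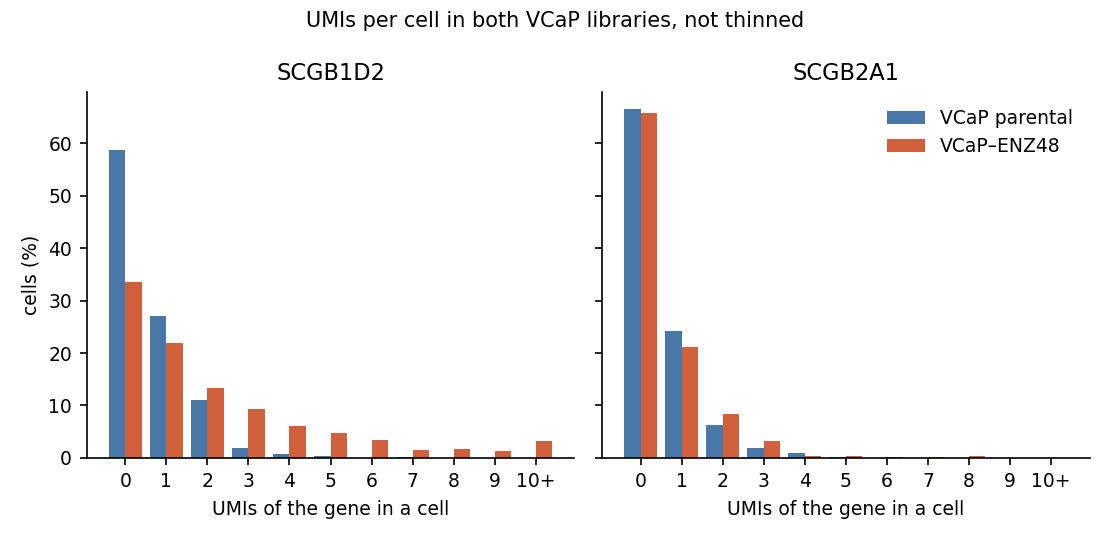
Percent of cells (y axis) by the number of UMIs of SCGB1D2 and SCGB2A1 in a cell (x axis, 10 or more pooled), in 997 VCaP parental and 947 VCaP–ENZ48 cells, not thinned. The SCGB1D2 bars of VCaP–ENZ48 extend past 5 UMIs while those of VCaP parental end near 5, and the SCGB2A1 bars of both libraries are close to each other.

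SCGB1D2 was higher in VCaP–ENZ48 in shallow and in deep cells. Cells of each library were divided by depth into 4 bins of equal cell number, which do not match in depth between the libraries, with medians of 11777, 15993, 19964 and 28431 UMIs in VCaP parental and 3788, 8138, 14956 and 29227 in VCaP–ENZ48. From the shallowest to the deepest bin SCGB1D2 was at 26.7, 34.4, 31.98 and 30.8 CPM in VCaP parental, and at 159.9, 161.2, 144.1 and 142.7 CPM in VCaP–ENZ48. The fold between the libraries ran from 4.51 in the bin next to the deepest to 5.998 in the shallowest. SCGB2A1 was 2.12-fold higher in the shallowest bin (1.33 to 3.32) and 1.37-fold in the deepest (1.14 to 1.66). Among cells of 8000 to 20000 UMIs in both libraries, a range chosen after the values were seen, SCGB1D2 was 4.57-fold (3.98 to 5.26) and SCGB2A1 1.55-fold higher (1.25 to 1.90).

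Cell cycle genes differed widely between the VCaP libraries, with all 10 S phase and all 10 G2M phase genes of the lists used at least 2-fold lower in VCaP–ENZ48. Cells were therefore divided by their UMIs of these 20 genes after thinning, a division chosen after the values were seen. Among cells with none, SCGB1D2 was at 39.9 CPM in 128 cells of VCaP parental (32.1 to 48.9) and at 155.6 CPM in 505 cells of VCaP–ENZ48 (147.1 to 164.5), 3.90-fold higher (3.16 to 4.88). SCGB2A1 was at 32.1 CPM (25.2 to 40.2) and 34.8 CPM (30.8 to 39.1) in the same cells, a ratio of 1.08 whose interval of 0.837 to 1.42 includes 1. The difference of SCGB2A1 between the libraries was thus within counting error in cells without cycle UMIs, and that of SCGB1D2 was not. Among cells with 1 or more cycle UMIs, SCGB1D2 was 4.50-fold (4.02 to 5.03) and SCGB2A1 1.71-fold higher (1.45 to 2.01) in VCaP–ENZ48. These cells were not alike in the libraries, as 590 of 869 in VCaP parental and 47 of 412 in VCaP–ENZ48 had 5 or more cycle UMIs. The part of this difference in the ratios was not tested.

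Both genes were lower in cells with many cycle UMIs, in either library. With 5 or more, SCGB1D2 was at 26.6 CPM in 590 cells of VCaP parental (23.7 to 29.7) and at 76.7 CPM in 47 cells of VCaP–ENZ48 (60.0 to 96.6). SCGB2A1 was at 18.2 CPM (15.9 to 20.8) and 18.1 CPM (10.6 to 29.0). The ratio between the libraries in these cells was 2.89 for SCGB1D2 (2.20 to 3.74) and 0.993 for SCGB2A1 (0.568 to 1.63). Each of these 4 intervals lies below that of the cells without cycle UMIs in the same library. The median depths of the cells with none and with 5 or more were 16584 and 18387 UMIs in VCaP parental, and 12753 and 12200 in VCaP–ENZ48. In VCaP–ENZ48, SCGB2A1 was at 39.1 CPM in cells with 1 or more cycle UMIs (34.3 to 44.3), within counting error of the cells with none, so the lower level there rests on the 17 UMIs of 47 cells.

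**Figure D4:**
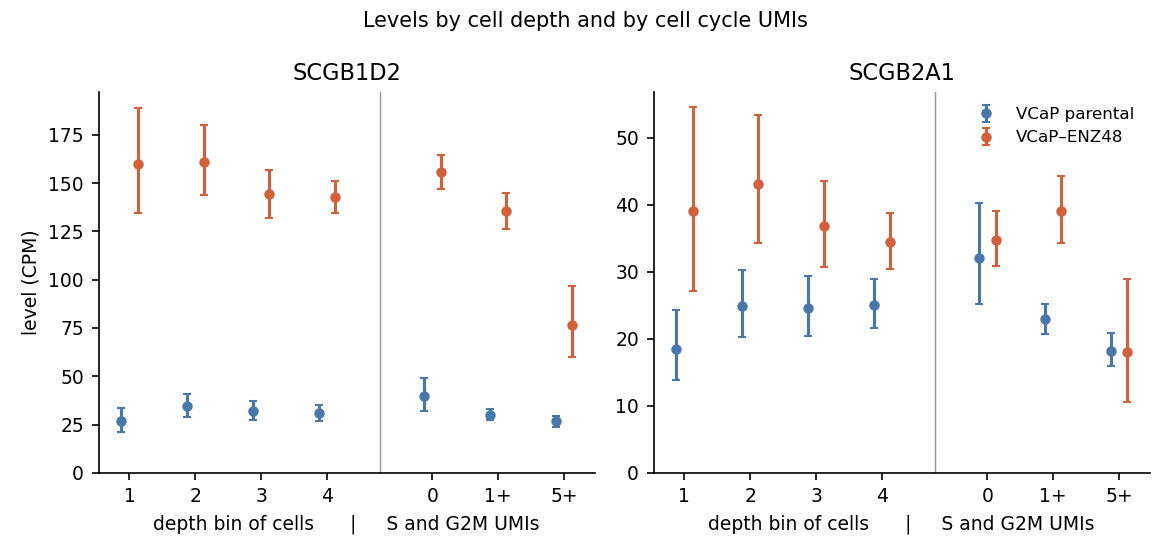
Levels of SCGB1D2 and SCGB2A1 (y axis, CPM from 0) in 4 bins of cells by depth, from the shallowest (bin 1) to the deepest (bin 4), and in cells with 0, with 1 or more and with 5 or more thinned UMIs of 20 S and G2M genes. Bars are exact Poisson 95% intervals. Depth bins are set within each library. SCGB1D2 of VCaP–ENZ48 is between 142.7 and 161.2 CPM in its 4 bins and is at 76.7 CPM in cells with 5 or more cycle UMIs, where SCGB2A1 is near 18 CPM in both libraries.

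SCGB1D2 and SCGB2A1 were next set against each other in the same cells, since their proteins belong to the branches that pair. After thinning, SCGB2A1 was found in 5 of 61 SCGB1D2-positive cells of VCaP parental (8.20%, 2.72 to 18.1%) and in 35 of 936 negative cells (3.74%, 2.62 to 5.16%). In VCaP–ENZ48 the shares were 23 of 230 (10.0%, 6.45 to 14.6%) and 54 of 687 (7.86%, 5.96 to 10.1%). In both libraries the intervals overlap, so no difference was detectable at this depth.

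Without thinning, SCGB2A1 was found in 40.8% of SCGB1D2-positive and 28.4% of negative cells of VCaP parental, and in 39.7% and 23.0% in VCaP–ENZ48. Positive cells were deeper than negative ones. Within the depth bins of VCaP–ENZ48, cells with both genes numbered 13, 39, 68 and 130, where the product of the shares gives 11.6, 40.0, 67.2 and 126.3. In VCaP parental the numbers were 18, 39, 38 and 73 against 10.1, 28.5, 41.1 and 73.2. In the shallowest bin of VCaP parental, SCGB2A1 was in 30.5% of SCGB1D2-positive cells (19.2 to 43.9%) and 13.1% of negative cells (8.65 to 18.7%), while in its deepest bin the shares were 49.7% and 50%. Cells with both genes thus exceeded the product of the shares in the shallower bins of VCaP parental and lay near it elsewhere. The level of SCGB2A1 was 22.1, 26.0 and 30.8 CPM in VCaP parental cells with 0, 1 to 4 and 5 or more SCGB1D2 UMIs, the last from 6 cells. In VCaP–ENZ48 it was 35.8, 34.7 and 39.7 CPM, and 48.1 CPM in the 30 cells with 10 or more.

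Other genes were compared between positive and negative cells of a library, again after thinning. The 5 highest and 3 lowest ratios among genes of at least 50 CPM were taken for each gene and library with at least 50 positive cells, 24 in all. For SCGB1D2 in VCaP–ENZ48 the highest were PPP1R9A (log2 ratio of CPM + 10 of 0.83), COLEC12 (0.73), RALB (0.72), ASRGL1 (0.71) and LYRM7 (0.70), over 230 positive and 687 negative cells. The ratios were not steady under another draw of UMIs. With a second thinning 6 of the 24 changed sign, 15 kept the sign at under 50% of the size and 3 kept 50% or more, and without thinning the numbers were 6, 16 and 2. COLEC12, a scavenger receptor, kept 50% or more under both, at 0.68 and 0.50, but both checks use the same cells and the gene was picked as an extreme. At these counts no gene can be named whose pattern over cells follows either secretoglobin.

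The 10 G2M genes summed to 234 CPM in SCGB2A1-positive and 442 CPM in negative cells of VCaP–ENZ48, a log2 ratio of −0.89 that became −0.10 with the second thinning. For SCGB1D2 the ratios were −0.18 in VCaP–ENZ48 (counting interval −0.44 to 0.06) and −0.26 in VCaP parental (−0.39 to −0.13). Without thinning they were −1.44 and −0.49, so the sign was the same and the size was not. The summed androgen-induced genes differed by 0.12 for SCGB1D2 in VCaP–ENZ48 (0.07 to 0.17), by 0.17 for SCGB2A1 in VCaP–ENZ48 (0.09 to 0.24) and by 0.07 for SCGB1D2 in VCaP parental (−0.04 to 0.19). The median over the 15 genes was −0.07 for SCGB1D2 in VCaP–ENZ48, the opposite sign to the sum, and the second thinning gave −0.01 for SCGB2A1. For SCGB2A1 in VCaP–ENZ48 the androgen-repressed genes were at 0.37 (0.05 to 0.69) and the transcription factors of secretory epithelia at 0.20 (0.06 to 0.35). The secreted proteins of glandular epithelia were at 0.23 for SCGB1D2 and 0.34 for SCGB2A1 in VCaP–ENZ48, and −0.13 for SCGB2A1 with the second thinning, so no direction is read from any of these lists.

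Genes that act around the secretoglobins were followed between the VCaP libraries from lists of genes by role. Over all genes 12.6% were at least 2-fold higher and 4.46% lower in VCaP–ENZ48. Of 15 androgen-induced genes compared, 0 were higher and 3 lower by that measure. The lower ones were the chaperone FKBP5 (log2 ratio −1.45), the androgen-response gene PMEPA1 (−1.10) and the transporter SLC45A3 (−2.02), while the kallikrein gene KLK2 was at 0.97 and the acid phosphatase gene ACP3, listed under its older symbol ACPP, at 0.94. The median of the list was 0.11, and −0.18 with TMM factors. Of 5 androgen-repressed genes compared, 2 were higher, the matricellular protein gene CCN3 (3.48) and the opioid receptor gene OPRK1 (1.56), and 0 were lower. UGT2B15, UGT2B17 and BCHE were at −0.81, −0.85 and −0.80, so that the median of the list, −0.80, has the opposite sign to the count. With TMM factors these 3 were also past 2-fold, and the count was 2 higher and 3 lower. SCGB1D2, at 2.19, lay between OPRK1 and CCN3 and far above UGT2B15, UGT2B17 and BCHE, and its control by androgen was not tested.

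Of 11 other secreted or surface proteins of glandular epithelia compared, 3 were at least 2-fold higher in VCaP–ENZ48 and 1 was lower. Over all genes the shares were 12.6% higher and 4.46% lower. The trefoil factor TFF1 was at 1.45, the tetraspanin TSPAN8 at 1.22 and clusterin (CLU) at 1.11, and the mucin-like MUCL1 was at −1.05. With TMM factors TFF1 alone was higher, and MUCL1, TFF3, SLPI and CRISP3 were lower, so the balance of the list turned with the scaling. Of 12 transcription factors of secretory epithelia compared, GATA2 (1.36), ELF3 (1.09) and HOXB13 (1.00) were higher and none was lower. With TMM factors GATA2 alone was past 2-fold among the 12, or 8.33% where 8.73% of all genes were. XBP1, a factor of the secretory pathway, was at 0.80. The proposed secretoglobin binding partners LMBR1L, a receptor, and SDC1, a proteoglycan, were at 0.61 and 0.13. The median over all genes was 0.20, over the secreted proteins 0.25 and over the transcription factors 0.51.

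The nearest protein-coding genes with a row on either side of the cluster were lower in VCaP–ENZ48. INCENP, a subunit of the chromosomal passenger complex that acts in mitosis, ends 55.5 kb before SCGB2A1. Its level was 26.7 CPM in VCaP parental and 3.85 CPM in VCaP–ENZ48, a log2 ratio of −2.52. ASRGL1, an asparaginase, starts 64.3 kb after SCGB2A2. Its level was 138.0 CPM and 51.3 CPM in the same order, a log2 ratio of −1.41. Farther out, AHNAK, which encodes a scaffold protein, was at 1.23, and EEF1G, whose reads can be split with near-identical copies, was at 1.31. FTH1 and BEST1, which overlap each other on the other side, were at −0.13 and 0.12.

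**Figure D5:**
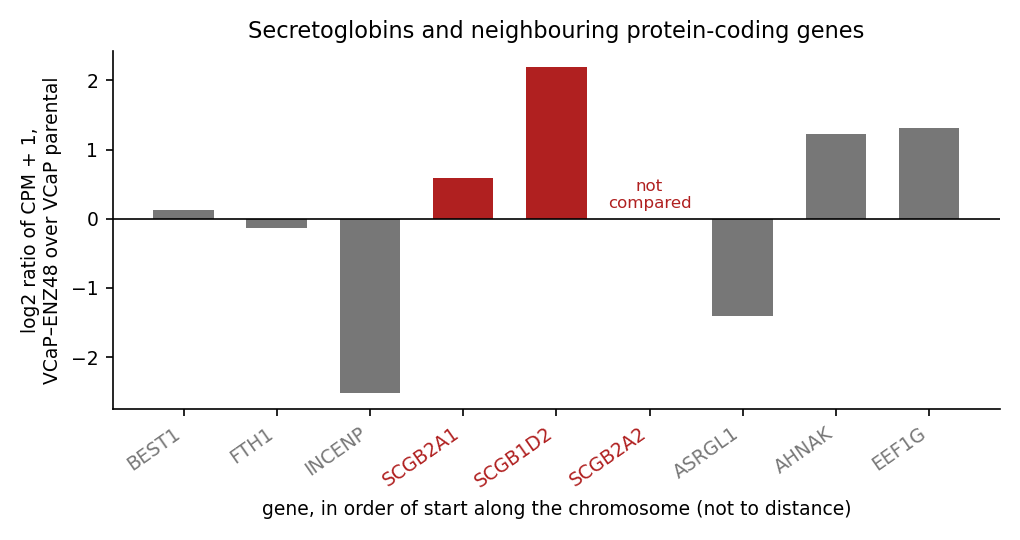
Log2 ratio of CPM + 1 between VCaP–ENZ48 and VCaP parental (y axis) for SCGB2A1 and SCGB1D2 (red) and 3 protein-coding genes with a row on either side (grey), ordered along the chromosome and not spaced by distance. SCGB2A2 had too few UMIs to compare. INCENP at −2.52 and ASRGL1 at −1.41 flank the secretoglobins at 0.59 and 2.19.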

How the data were processed

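Gene expression was measured by Drop-seq in VCaP parental, VCaP–ENZ48 and LNCaP–ENZ168, with 1 library each. The authors deposited raw UMI counts for each gene in each barcode, made with STAR and the Drop-seq tools on GRCh38 with Gencode 33 and an expectation of 1000 cells per sample. Coordinates are from Gencode 44. The 3 genes, the gene lists and the rules were chosen with earlier results of these data known.

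The cell filter asked for 300 or more genes, 500 or more UMIs and a mitochondrial share of 25% or less. Kept cells held 19515202, 14301287 and 6313283 UMIs, in the order above. Doublets were not removed. UMIs were summed per library and scaled to CPM. Ratios are log2 ratios of CPM + 1 between libraries and of CPM + 10 between cells of 1 library. Cells were thinned without replacement to 2000 UMIs, leaving out 30 cells of VCaP–ENZ48 and 1 of LNCaP–ENZ168. Intervals are exact 95% intervals (Poisson, conditional binomial or Clopper-Pearson), and 3 counts were taken as the upper limit behind a 0. No test was made, since cells are not replicates. Named genes were the list genes past 2-fold or with a role described, the 3 nearest protein-coding genes on each side, and the 5 highest and 3 lowest ratios between positive and negative cells. Alternatives covered the cell filter, depth, barcodes, scaling, pseudocount and thinning. A gene of the lists is not reported here, and 1 list gene was matched by an older symbol from RefSeq. The steps were tested on simulated data. Python 3.11.15 with numpy 2.4.6, scipy 1.17.1 and pandas 2.3.3, and R 4.3.3 with edgeR 4.0.16 for TMM factors, were used.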

Additional observations from a re-analysis of the deposited data

Results flagged for a closer look

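The barcodes left out by the cell filter held signal of both genes in VCaP–ENZ48. Its 53 such barcodes, with 31.3% mitochondrial UMIs, held 36 UMIs of SCGB1D2, or 148 CPM (103.5 to 204.6), against 146.6 CPM in kept cells. They held 10 UMIs of SCGB2A1, or 41.1 CPM (19.7 to 75.5), against 36.5 CPM in kept cells. The 3 barcodes left out of VCaP parental and the 56 of LNCaP–ENZ168 held 0 UMIs of either gene. With only 17847 UMIs in all, the 3 barcodes of VCaP parental allow up to 207 CPM, above the level of its kept cells, and those of LNCaP–ENZ168 allow up to 18.4 CPM.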

How the results depend on the processing

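No paired analysis was possible because no group had a second library. Levels under 3 UMIs in a library cannot be told from 0, and the LNCaP ratios rest on 3 and 1 UMIs. SCGB1D2 was higher in VCaP–ENZ48 than in VCaP parental, and both genes were lower in LNCaP–ENZ168, under every alternative listed here. SCGB2A1 had values that were nominally higher in VCaP–ENZ48 under these alternatives, but not all were beyond counting error. In cells without cycle UMIs its fold was 1.08 (0.837 to 1.42), and its shares without thinning, 33.5% and 34.1%, had overlapping intervals. In cells with 5 or more cycle UMIs SCGB2A1 had a ratio of 0.993 between the VCaP libraries. Outside the LNCaP ratios, values below are those that left their counting interval, with SCGB1D2 before SCGB2A1 and VCaP parental before VCaP–ENZ48. The LNCaP ratios below moved from the value as reported but include the pseudocount. Several of them lie inside the counting intervals of the folds above, which hold no pseudocount. The cause was not tested unless the alternative itself sets the value. Cells without cycle UMIs and cells of 8000 to 20000 UMIs were alternatives chosen after seeing the data.

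The log2 ratios between the VCaP libraries were 1.91 and 0.31 with TMM factors, 1.97 and 0.36 with median-of-ratios factors, and 1.94 and 0.11 in cells without cycle UMIs. SCGB1D2 was at 1.93 with barcodes ending in a base and 2.06 with a pseudocount of 5 CPM. The share of genes at least 2-fold lower was 6.88% among genes of at least 10 CPM. The ratios of LNCaP–ENZ168 over VCaP–ENZ48 were −7.99 and −7.15 with a pseudocount of 0.1 CPM, −4.79 and −3.01 with 5 CPM, and −7.10 and −5.52 without mitochondrial and ribosomal protein genes. Those over VCaP parental were −5.77 and −6.54, −2.73 and −2.49, and, with TMM factors, −4.94 and −4.84. SCGB2A1 was at −4.82 without mitochondrial and ribosomal protein genes. SCGB1D2 was at −7.14 and −4.92 without its richest 1% of cells.

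Levels without mitochondrial and ribosomal protein genes in the total were 42.6 and 216.6 CPM for SCGB1D2 and 32.7 and 53.9 CPM for SCGB2A1. In cells without cycle UMIs they were 39.9 and 155.6 CPM, and 32.1 CPM for SCGB2A1 in VCaP parental. Barcodes ending in a base gave 35.8 and 139.8 CPM, and 40.4 CPM for SCGB2A1 in VCaP–ENZ48. SCGB1D2 in VCaP–ENZ48 was at 139.9 CPM without its richest 1% of cells. The levels of LNCaP–ENZ168 and of SCGB2A2 went to 0 when the cells with the 1 to 3 UMIs were left out, and so did the share of LNCaP–ENZ168 cells with SCGB2A1.

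Shares of cells with a UMI follow the depth of thinning by construction. At 1000 UMIs they were 4.21% and 12.7% for SCGB1D2 and 2.41% and 4.12% for SCGB2A1, at 4000 UMIs 11.6% and 40.2%, and 6.92% and 15.1%, and without thinning 41.3% and 66.4%, and 33.5% and 34.1%. In VCaP–ENZ48 the second thinning gave 5.998% for SCGB2A1, and barcodes ending in a base gave 20.0% and 5.6%. The share of SCGB2A1-positive cells, SCGB1D2-positive minus negative cells, was −3.93 percentage points at 4000 UMIs in VCaP parental, against 4.46 as reported, and 16.8 without thinning in VCaP–ENZ48. After thinning, the richest 10% of cells held 51.6% of the SCGB1D2 UMIs of VCaP–ENZ48, and 100% in the other 3 cases, where under 10% of cells were positive.

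Ratios between positive and negative cells also moved. For the SCGB1D2 cells of VCaP parental, the G2M genes were at −0.49 without thinning, −0.72 with the second thinning and −0.74 at 2 or more UMIs. The S genes were at −0.094 without thinning, 0.57 at 2 or more UMIs and −0.74 without barcodes above 3 times the median depth. The androgen-induced genes were at −0.12 at 2 or more UMIs, and the secreted proteins at 0.29 without those deep barcodes. For the SCGB1D2 cells of VCaP–ENZ48, the G2M genes were at −1.44, −0.45 and −1.76 in the first order, and the androgen-induced genes at 0.031 without thinning and 0.46 at 2 or more UMIs. The secreted proteins went from 0.23 to −0.0059 without thinning, 0.11 with the second thinning, 0.50 at 2 or more UMIs and 0.061 without deep barcodes. For the SCGB2A1 cells, the G2M genes were at −0.10 with the second thinning and −5.50 at 2 or more UMIs, where the S genes were at −4.26. The values −5.50 and −4.26 are what the pseudocount alone gives, as the positive cells then held no UMI of either list. The number of these positive cells is not given here, so no size of a difference is read from either value. The androgen-induced genes went from 0.17 to 0.0022 without thinning, −0.012 with the second thinning and −0.86 at 2 or more UMIs. The secreted proteins went from 0.34 to 0.016 without thinning, −0.13 with the second thinning and 1.46 at 2 or more UMIs. ASRGL1 went from 0.71 to 0.015 without thinning, −0.038 with the second thinning and 0.13 without deep barcodes.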

Other observations

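Both secretoglobins varied with the mitochondrial share of cells in VCaP–ENZ48. SCGB1D2 was at 124.8 CPM in the lowest of 4 bins of cells by this share (113.6 to 136.8) and at 181.9 CPM in the highest (164.3 to 200.9), and SCGB2A1 was at 29.2 CPM (23.9 to 35.3) and 43.96 CPM (35.5 to 53.8). In VCaP parental SCGB1D2 was at 26.1 CPM (21.8 to 31.0) and 32.4 CPM (27.3 to 38.3), and SCGB2A1 was at 20.9 CPM (17.1 to 25.3) and 25.2 CPM (20.7 to 30.5), with overlapping intervals. The fold between the VCaP libraries was 4.79 (3.93 to 5.86) for SCGB1D2 in the lowest bins and 5.61 (4.61 to 6.86) in the highest. These bins also differed in depth, with medians of 11746 UMIs in the lowest and 6184.5 in the highest of VCaP–ENZ48. In VCaP parental the medians were 18258.5 and 16087 UMIs. The part of depth in these values was not tested.

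Barcodes that ended in N rather than a base made up 859 of 997 cells of VCaP parental and 820 of 947 of VCaP–ENZ48. SCGB1D2 was 4.89-fold higher in VCaP–ENZ48 among them (4.42 to 5.41) and 3.90-fold higher among barcodes ending in a base (3.16 to 4.85). Median depths of barcodes ending in N and in a base were 17437 and 21302 UMIs in VCaP parental. In VCaP–ENZ48 they were 10604 and 21506 UMIs, and the part of depth in these folds was not tested.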
